A study of Mus musculus with 6 samples.

Results

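The genes followed here encode the enzymes of glycolysis and their main branches in mouse embryonic stem cells. They comprise the glycolytic enzymes with lactate dehydrogenase, the PFKFB regulators of phosphofructokinase, pyruvate dehydrogenase with its kinases and phosphatases, and the pentose phosphate enzymes. They were chosen by symbol, 36 genes of the 25899 in the count table, and all 36 were listed. Of these, 35 passed the filter on low counts, and G6pdx did not. Nascent RNA was measured in E14tg2a cells (129SV background) that stably express cRAF-ErT2, a kinase fusion switched on by 4-hydroxytamoxifen (4OHT) so that ERK signalling is activated. The culture medium held serum, LIF and 2 µM of the GSK3 inhibitor CHIR99021, which was exchanged 24 h ahead of treatment for serum, LIF and 250 nM of the FGF receptor inhibitor PD173074. The untreated group (time 0 h) and the group given 250 nM 4OHT for 2 h each held 1 library from clones a, b and c, and all cells received 5 mM ethynyl uridine for 15 min before RNA isolation. No library came from 4OHT-treated cells without the cassette, and none is labelled as a solvent control, so what 4OHT does by itself and what ERK activation does cannot be told apart.

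Glycolysis converts glucose to pyruvate, with hexokinase, phosphofructokinase and pyruvate kinase as its irreversible steps. Pyruvate is reduced to lactate by lactate dehydrogenase, or enters mitochondria and is oxidised by the pyruvate dehydrogenase complex, which PDK kinases switch off and PDP phosphatases switch on. The pentose phosphate pathway branches off at glucose-phosphate and supplies NADPH and ribose. Pluripotent stem cells are known for a high rate of glycolysis, and several steps are served by isoforms from different genes.

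Total counts were 7295334 to 12168380 per library, and a count of 3, the most that a count of 0 allows, stood for 0.227 to 0.438 CPM (depth-normalised counts, scaled by TMM). Clone c stood apart, since the chi-square per gene between libraries of a group was 2.29 to 2.44 for clones a and b and 5.38 to 11.3 for pairs with clone c. The ERK targets Dusp6 and Fos rose by 2.14 ± 0.09 and 4.98 ± 0.11 on the log2 scale. All 10 embryonic stem cell markers had counts, with summed levels of 3033 to 3168 CPM untreated and 2116 to 2531 CPM after 4OHT. Of 8 fibroblast or feeder markers 6 had counts, with summed levels of 2.73 to 3.52 CPM untreated and 20.6 to 24.8 CPM after 4OHT, and Postn and Lum were at 0 throughout. Only 3 of the 8 could be tested, with 2 higher and 1 lower, while Col1a2 and Col3a1 had at most 18 counts in all, and of the stem cell markers 2 rose and 5 fell. The 6 primitive endoderm markers summed to 7.28 to 10.7 and 9.02 to 11.4 CPM, and the 6 trophoblast markers to 104.9 to 109.0 and 72.7 to 86.2 CPM. The part of these shifts in the results below was not tested. In bulk samples, fewer cells of a type and less RNA per cell cannot be told apart.

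The design asks which genes were transcribed more or less after 2 h of 4OHT, given to activate ERK. Of the 35 tested genes, 18 were higher and 8 lower after 4OHT, with a median log2 fold change of 0.31 against -0.0005 over all genes tested (edgeR quasi-likelihood test, adjusted p below 0.05). Over all 13869 genes tested, 28.5% were called higher and 28.6% lower, so the share called lower was close to this background and the share called higher was above it. Without clone c, 17 were higher and 8 lower. Changes of at least 1 on the log2 scale were found in 4 of the higher genes (Pfkp, Eno2, Gpi1 and Pdk1) and in 2 of the lower genes (Hk1 and Ldhb), against 6.83% and 9.55% of all genes. Each of the 3 clones moved in the called direction in all 18 higher and all 8 lower genes, and the groups did not overlap for 17 and 8 of them, with Pgam1 as the exception. Over all genes, groups did not overlap upwards for 31.4% and downwards for 31.9%. In sum over the 36 genes, clones a, b and c gave 4410.2, 4098.5 and 4267 CPM untreated and 5836, 5426 and 5819.8 CPM after 4OHT. Fitting the clones as a replicate block called 20 of the 35 genes higher and 9 lower, where 34.1% and 33.3% of all genes were called.

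**Figure D1:**
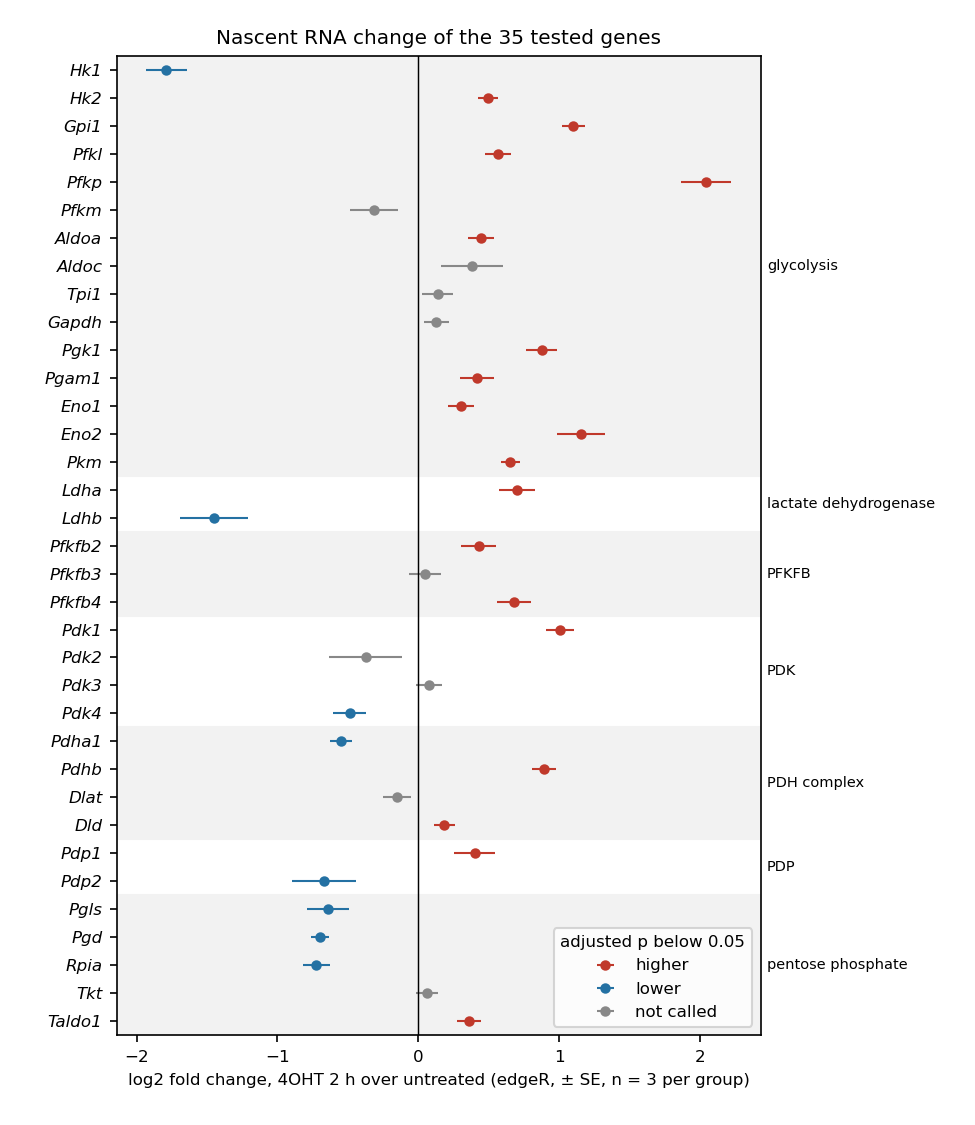
Log2 fold change after 2 h of 4OHT over untreated (x axis) of the 35 tested genes in pathway order (y axis). Points are edgeR estimates and bars their SE, with 3 libraries per group and colour by call. Glycolytic genes lie mostly to the right, with Pfkp at 2.04, while Hk1 at -1.79 and Ldhb at -1.45 lie farthest to the left.

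How large the share of rises was depended on how the libraries were scaled. Scaling by library size alone shifted every fold change by a median of -0.20, upper quartile scaling by -0.10 and scaling to the 13 genes with the highest counts by -0.31. By library size 12 of the 35 genes were higher and 10 lower, where all genes gave 17.4% and 41.0%. With the upper quartile 13 were higher and 9 lower (22.7% and 34.3% of all genes). Scaled to the 13 highest-count genes, 7 were higher and 10 lower (9.94% and 40.0% of all genes). The 7 genes higher under each of these scalings were Pfkp, Eno2, Gpi1, Pdk1, Pdhb, Pgk1 and Ldha, and the 8 lower under each were Hk1, Ldhb, Rpia, Pgd, Pdp2, Pgls, Pdha1 and Pdk4.

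**Figure D2:**
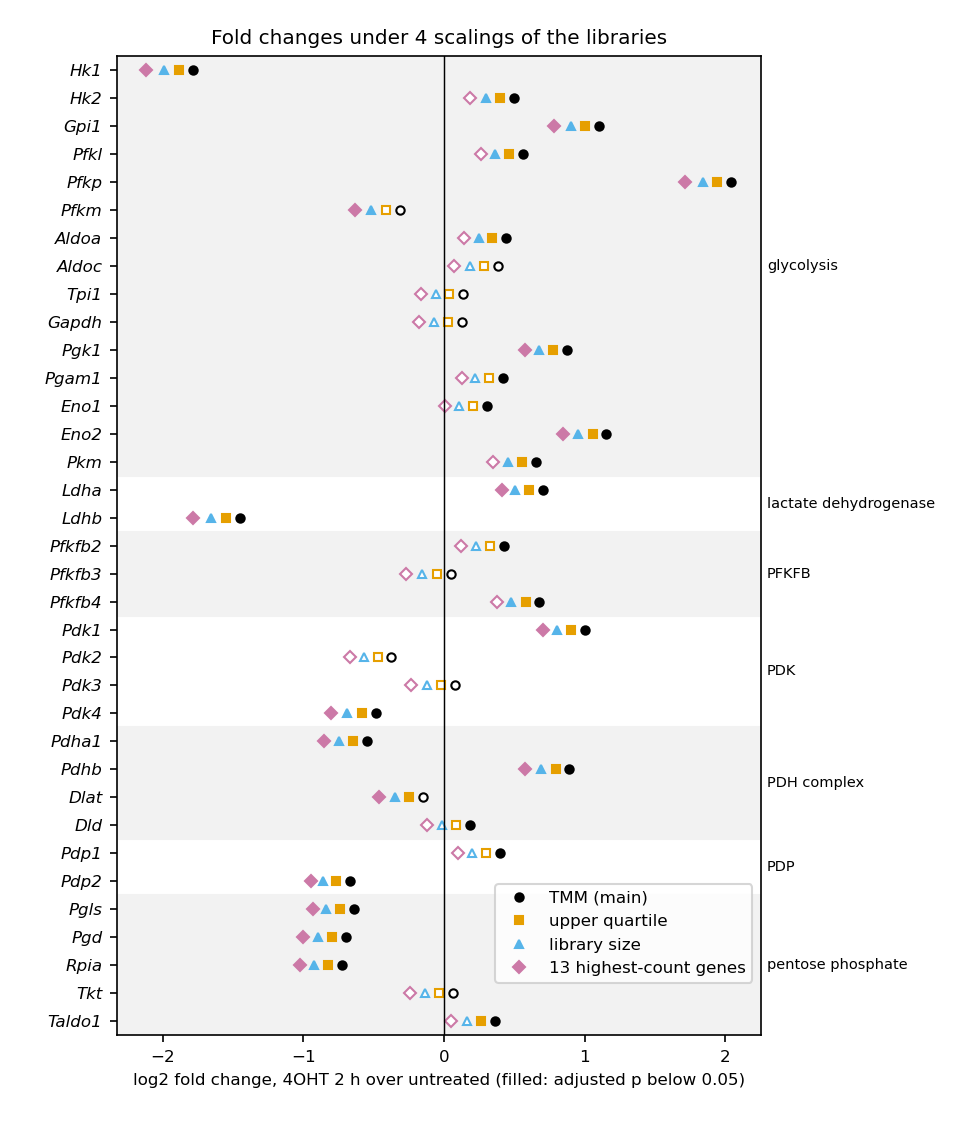
Log2 fold change after 4OHT (x axis) of the 35 tested genes (y axis) under 4 scalings of the libraries, shown by symbol and colour. Filled symbols passed an adjusted p of 0.05. Each gene moves to the left from TMM to the 13 highest-count genes, and Gapdh goes from 0.13 to -0.18.

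Of the 15 glycolytic genes up to pyruvate, 10 were higher and 1 lower (median 0.44), where 28.5% and 28.6% of all genes were. There were 8 and 2 by library size (17.4% and 41.0% of all genes), 4 and 2 scaled to the 13 highest-count genes (9.94% and 40.0%) and 12 and 2 with clone as a replicate block (34.1% and 33.3%). At the first step the hexokinase isoforms, which trap glucose in the cell as glucose-phosphate, moved in opposite directions. Hk1 (chromosome 10, 62268855 to 62379908, GRCm38) had, in the order of clones a, b and c, 63.6, 65.3 and 45.5 CPM untreated and 18.02, 16.1 and 16.5 CPM after 4OHT. The groups were far apart, with a log2 fold change of -1.79 ± 0.14 (edgeR adjusted p = 4e-06), a 3.45-fold fall. Hk1os, antisense to Hk1, covers 20.8% of the Hk1 span and was not counted. Hk2 (chromosome 6, 82725025 to 82774454) had 485, 441 and 456 CPM untreated and 679, 608 and 657 CPM after 4OHT. It rose by 0.49 ± 0.07 (adjusted p = 0.00019) with no overlap of the groups, although scaling to the 13 highest-count genes left 0.18 (adjusted p = 0.37). Per kilobase of gene span, Hk2 was the higher of the pair already in untreated cells, at 9.315 ± 0.45 against 0.524 ± 0.099 CPM per kb (SD, n = 3).

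Gpi1 (chromosome 7, 34201330 to 34230336), which interconverts the hexose phosphates after hexokinase, rose 2.14-fold. It had 168, 161 and 139 CPM untreated and 344, 312 and 348 CPM after 4OHT, with no overlap (1.101 ± 0.083, edgeR adjusted p = 2.6e-06). Antisense to it, Gm26762 covers 18.9% of its span, and 15.8% of the 50-base words of its transcripts also occur in transcripts of other genes.

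Phosphofructokinase, the main control point of glycolysis, is built from the liver (Pfkl), platelet (Pfkp) and muscle (Pfkm) type subunits. Pfkp (chromosome 13, 6579768 to 6648777) showed the largest rise of the 35 genes, from 153, 129 and 93.8 CPM to 606, 537 and 408 CPM. Clone c was lowest in both groups, yet each clone rose by a similar factor, with log2 differences of 1.99, 2.05 and 2.12. The fitted change was 2.04 ± 0.18 (edgeR adjusted p = 7.3e-06), a 4.12-fold rise. The span of Pfkp overlaps the oppositely oriented Pitrm1 by 1.1%. Pfkl (chromosome 10, 77986947 to 78010083) had 102, 89.4 and 109.5 CPM untreated and 142, 138 and 164 CPM after 4OHT, a rise of 0.56 ± 0.09 (adjusted p = 0.00048), with 0.26 and adjusted p = 0.22 when scaled to the 13 highest-count genes. Pfkm (chromosome 15, 98092589 to 98132451) had 36.02, 28.2 and 26.4 CPM untreated and 30.6, 22.6 and 19.3 CPM after 4OHT. Its groups overlapped and it did not pass the test (-0.32 ± 0.17, adjusted p = 0.14), but did with clone as a replicate block (adjusted p = 0.0025), by library size (-0.52, adjusted p = 0.024) and without the treated library of clone a (-0.52, adjusted p = 0.021). The order of the subunits per kilobase of span was Pfkl, Pfkp, Pfkm in untreated cells, at 4.34 ± 0.44, 1.82 ± 0.43 and 0.758 ± 0.128 CPM per kb. After 4OHT, Pfkp at 7.49 ± 1.45 and Pfkl at 6.40 ± 0.61 CPM per kb overlapped between libraries, both above Pfkm at 0.606 ± 0.146. Per kilobase of exon, untreated Pfkp (9.35 ± 2.22 CPM per kb) and Pfkm (9.05 ± 1.53) overlapped, and after 4OHT Pfkp (38.6 ± 7.49) lay above Pfkl (22.2 ± 2.12) in every library.

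The 250 bases before the start of Pfkp (chr13:6648772-6649021, minus strand, RefSeq on GRCm38.p6) are shown because Pfkp rose most. Capitals mark ACGTG or GCGTG on either strand, the core letters recognised by the hypoxia factor HIF.
Pfkp: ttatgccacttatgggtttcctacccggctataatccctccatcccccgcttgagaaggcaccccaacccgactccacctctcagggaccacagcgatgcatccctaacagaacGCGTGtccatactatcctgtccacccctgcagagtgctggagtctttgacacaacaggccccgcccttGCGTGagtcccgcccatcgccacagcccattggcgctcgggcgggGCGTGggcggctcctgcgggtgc

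Downstream of phosphofructokinase, Aldoa, Pgk1, Pgam1, Eno1, Eno2 and Pkm were called higher, and Aldoc, Tpi1 and Gapdh were not called. Aldoa, the main aldolase, rose by 0.44 ± 0.09 (136 ± 15.3 to 185 ± 15.2 CPM, SD, n = 3, edgeR adjusted p = 0.0023), with 0.14 and adjusted p = 0.53 under the scaling to 13 genes. Fam57b, on the other strand, shares 55.9% of its span. Aldoc, a minor aldolase here, stood at 2.37 ± 0.28 and 3.12 ± 0.36 CPM and did not pass (0.38 ± 0.22, adjusted p = 0.16). Tpi1, which interconverts the triose phosphates, had 72.5 ± 7.52 and 79.8 ± 12.196 CPM (0.14 ± 0.11, adjusted p = 0.32), and passed with clone as a replicate block (adjusted p = 0.040).

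Gapdh (chromosome 6, 125161715 to 125166467), often used as a reference gene, had 453, 481 and 527 CPM untreated and 503, 501 and 593 CPM after 4OHT. The groups overlapped, and the change of 0.13 ± 0.09 (edgeR adjusted p = 0.23) passed with clone as a replicate block (0.13, adjusted p = 0.012) but turned to -0.07 by library size and -0.18 scaled to the 13 highest-count genes. Per kilobase of span it was the highest of the 35 genes, at 102.5 ± 7.82 CPM per kb untreated, followed by Pkm (32.3 ± 1.32) and Eno1 (32.3 ± 3.26). Aldoa came next (24.7 ± 2.78), with 55.9% of its span shared with Fam57b, and whether that overlap lowered its place was not tested. Per kilobase of exon Gapdh (117.8 ± 9.0 CPM per kb) came behind Ldhb and Pkm (148.7 ± 6.1), and Eno1 stood at 73.0 ± 7.38. Which length applies is not known, because the counted feature is not stated.

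Pgk1 (chromosome X, 106187100 to 106203699), phosphoglycerate kinase and the first ATP-forming step, rose 1.83-fold. It had 111, 89.9 and 118 CPM untreated and 193, 174 and 216 CPM after 4OHT, well apart (0.87 ± 0.11, edgeR adjusted p = 7.7e-05). Pgam1, phosphoglycerate mutase, had 62.8, 62.2 and 84.5 CPM untreated and 94.6, 83.2 and 101 CPM after 4OHT. Its groups overlapped through untreated clone c, and its rise of 0.42 ± 0.12 (adjusted p = 0.014) was lost without the untreated library of clone a (adjusted p = 0.052) or b (0.0615), without clone a or b (0.11 and 0.0625), and by library size (0.22, adjusted p = 0.13). Of the words of 50 bases in Pgk1 and Pgam1 transcripts, 53.9% and 36.2% recur in other genes, foremost Pgk1-rs7 and Pgam1-ps2, so reads of these near copies may not be resolved. This share was also high for Eno1 (26.0%), Gapdh (25.1%) and Ldhb (chiefly with Gm5514). For Pkm it was 25.8%, foremost with Gm49759, which overlaps 16.9% of the Pkm span on the same strand and was not counted.

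Among enolases, Eno1 is the ubiquitous form and Eno2 the neuronal form. Eno1 had 373, 367 and 439 CPM untreated and 459, 458 and 540 CPM after 4OHT (0.31 ± 0.09, edgeR adjusted p = 0.016), with 0.11 by library size (adjusted p = 0.32), and was not called without the untreated library of clone a (adjusted p = 0.061) or b (0.072) or without clone a or b altogether (0.077 and 0.11). Eno2 (chromosome 6, 124760053 to 124769673) rose from 7.36, 5.61 and 6.85 to 14.3, 12.4 and 17.7 CPM (1.15 ± 0.17, adjusted p = 0.00025), a 2.23-fold rise from a low level. Pkm (chromosome 9, 59656368 to 59679375), pyruvate kinase and the highest of the 36 genes in CPM, rose from 766, 709 and 756 to 1195, 1122 and 1189 CPM. All treated libraries lay well above the untreated ones (0.65 ± 0.07, adjusted p = 2.2e-05), with 0.35 and adjusted p = 0.059 when scaled to the 13 highest-count genes. The table gives counts per gene, so the splice forms of Pkm were not analysed here.

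The lactate dehydrogenase subunits parted. Ldha (chromosome 7, 46841475 to 46855627), the subunit that favours lactate formation, had 190, 158 and 226 CPM untreated and 294, 285 and 356 CPM after 4OHT (0.70 ± 0.13, edgeR adjusted p = 0.00091), a 1.63-fold rise. Ldhb (chromosome 6, 142490249 to 142507957), the heart-type subunit, fell from 449, 364 and 229 CPM to 160, 130 and 91.2 CPM, a 2.73-fold fall (-1.45 ± 0.24, adjusted p = 0.00050). Clone c had the least Ldhb in both groups and the most Ldha, and the groups did not overlap for either gene. Per kilobase of span, untreated Ldhb at 19.6 ± 6.25 CPM per kb overlapped Ldha at 13.5 ± 2.41. After 4OHT Ldha stood at 22.0 ± 2.72 and Ldhb at 7.165 ± 1.94 CPM per kb, without overlap. Per kilobase of exon the picture differed, with Ldhb far above Ldha untreated (221.3 ± 70.5 against 57.9 ± 10.3 CPM per kb) and the pair overlapping after 4OHT (80.8 ± 21.8 against 94.1 ± 11.6). The counted feature is not stated. Of 870 listed protein-coding genes inside another one, 865 were at 0 in every library. Which of these orders applies was not tested.

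The upstream windows of this pair and of Pgk1 are shown because Ldha and Pgk1 are textbook HIF target genes and Ldhb moved the other way. They lie at chr7:46845554-46845803 (plus strand, the first of 2 Ldha windows), chr6:142507958-142508207 (minus strand) and chrX:106186850-106187099 (plus strand), with the same letters in capitals.
Ldha: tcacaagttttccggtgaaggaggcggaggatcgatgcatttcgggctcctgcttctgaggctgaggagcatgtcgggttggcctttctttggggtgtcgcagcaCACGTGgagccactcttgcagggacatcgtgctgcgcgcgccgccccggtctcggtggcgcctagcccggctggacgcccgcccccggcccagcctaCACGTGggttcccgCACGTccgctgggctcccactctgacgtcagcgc
Ldhb: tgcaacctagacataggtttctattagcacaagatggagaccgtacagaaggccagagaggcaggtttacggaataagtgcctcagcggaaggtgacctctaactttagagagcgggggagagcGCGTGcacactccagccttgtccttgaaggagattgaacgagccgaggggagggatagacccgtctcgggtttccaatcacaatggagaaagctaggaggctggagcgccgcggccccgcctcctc
Pgk1: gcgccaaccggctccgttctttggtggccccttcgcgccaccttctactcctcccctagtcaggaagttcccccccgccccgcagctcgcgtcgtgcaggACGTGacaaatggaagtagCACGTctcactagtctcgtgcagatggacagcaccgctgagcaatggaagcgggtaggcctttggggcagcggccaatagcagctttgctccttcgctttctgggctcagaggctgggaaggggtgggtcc

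Counting both strands, ACGTG or GCGTG occurred upstream 5 times in Ldha, 1 time in Ldhb, 2 times in Pgk1 and 3 times in Pfkp. In Ldha each CACGTG counts on both strands, and its second window held 1. These windows were picked by how their genes moved or as HIF targets. Among genes that fell, Hk1 (0 in its other window) and Pdha1 held 3 each, and Pdk3, not called, held 4. Gpi1 and Eno2, which rose, held 0. Whether these letters go with the direction of change was not tested. In windows of 300 bases (250 before and 50 after the start), 30 of the 35 genes with a window held it, against 46.7% of all 27025 genes with windows and 66.4% of those tested here. Genes with several windows count if any holds it, and by window the shares were 76.9% of 52 and 43.8% of 32851. CACGTG, the E-box, which contains ACGTG, was found in 6 of the 35 (8.1% of all genes and 11.5% of those tested). CCGGAAG, an ETS core, was found in 2 (9.9% and 18.9%), and TGANTCA, the AP-1 site, in 1 (9.0% and 6.3%). Pdp1 had no window in the table.

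**Figure D3:**
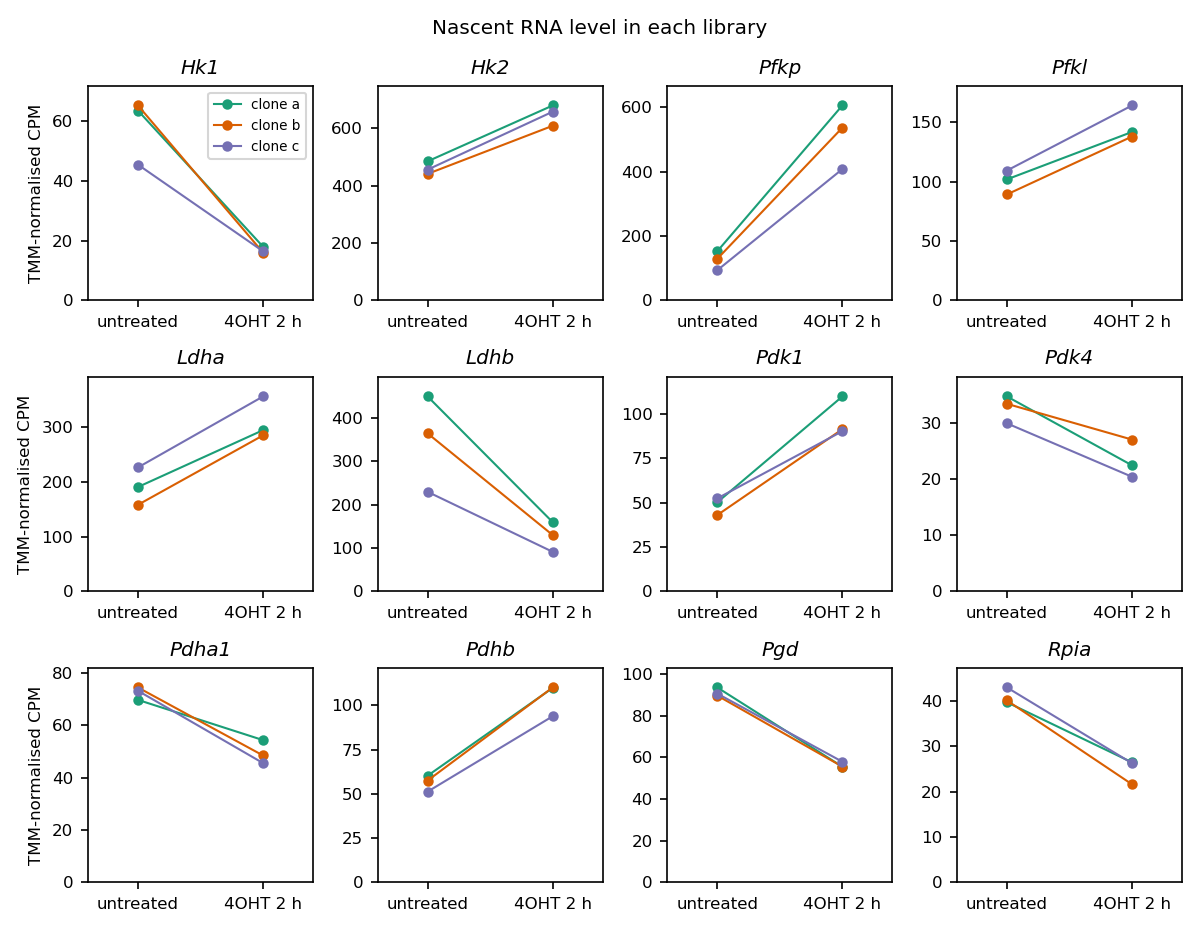
Nascent RNA level in TMM-normalised CPM (y axis, from 0) of 12 genes in untreated cells and after 2 h of 4OHT (x axis), with 1 line per clone. All 3 clones rise for Hk2, Pfkp, Pfkl, Ldha, Pdk1 and Pdhb and fall for Hk1, Ldhb, Pdk4, Pdha1, Pgd and Rpia.

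The PFKFB enzymes set the level of the activator of phosphofructokinase. Of the 3 genes 2 were higher, where 28.5% of all genes were. By library size 1 was higher (17.4% of all genes), and scaled to the 13 highest-count genes 0 were (9.94%). Pfkfb4 had 8.64, 9.25 and 10.1 CPM untreated and 14.1, 15.9 and 14.6 CPM after 4OHT (0.68 ± 0.12, edgeR adjusted p = 0.00095), without overlap. Pfkfb2 had 9.05, 9.78 and 9.59 CPM untreated and 11.4, 13.2 and 13.7 CPM after 4OHT (0.43 ± 0.13, adjusted p = 0.016). The Pfkfb2 call was lost without clone b or c (adjusted p = 0.11 and 0.057), without untreated clone a or treated clone b (both 0.053) and by library size (0.23, adjusted p = 0.15), and 66.4% of its span is shared with Gm29427. Pfkfb3, the inducible form with the highest kinase activity, had 25.1, 28.2 and 21.9 CPM untreated and 28.2, 24.5 and 25.2 CPM after 4OHT, and did not pass (0.05 ± 0.11, adjusted p = 0.74, or -0.15 by library size and -0.27 scaled to the 13 highest-count genes).

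The PDK genes encode kinases that inactivate pyruvate dehydrogenase. Of the 4 genes 1 was higher and 1 lower, close to the 28.5% and 28.6% of all genes. Pdk1 (chromosome 2, 71873224 to 71903858), a HIF target, rose from 50.2, 43.0 and 52.4 to 109.7, 91.3 and 90.2 CPM (1.00 ± 0.10, edgeR adjusted p = 1.7e-05). Pdk4 (chromosome 6, 5483351 to 5496309), the form known for induction by fasting, fell from 34.7, 33.4 and 29.9 to 22.5, 27.1 and 20.4 CPM (-0.49 ± 0.12, adjusted p = 0.0048, and adjusted p = 0.062 without clone a). Both genes had groups that did not overlap. Pdk3 had 30.7, 29.3 and 28.8 CPM untreated and 34.4, 29.7 and 29.3 CPM after 4OHT, which overlapped (0.08 ± 0.09, adjusted p = 0.51, or -0.12 by library size). Pdk2 was near the low end, with 2.72, 2.35 and 3.23 CPM untreated and 2.17, 1.61 and 2.63 CPM after 4OHT (-0.37 ± 0.26, adjusted p = 0.24).

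Within the pyruvate dehydrogenase complex, the subunits of the same E1 enzyme moved in opposite directions. Pdha1 (chromosome X, 160122209 to 160138413), the E1 alpha subunit and the target of the PDK kinases, fell from 69.6, 74.4 and 73.1 to 54.3, 48.4 and 45.5 CPM (-0.55 ± 0.08, edgeR adjusted p = 0.00022). Pdhb (chromosome 14, 8165996 to 8173025), the E1 beta subunit, rose from 60.3, 57.5 and 51.3 to 109.8, 110.1 and 93.8 CPM (0.89 ± 0.09, adjusted p = 1.5e-05). Neither pair of groups overlapped. Pdha1 shares 7.1% of its span with the oppositely oriented Map3k15. Dlat, the E2 acetyltransferase, had 39.1 ± 3.30 and 35.3 ± 3.53 CPM and did not pass (-0.15 ± 0.10, adjusted p = 0.23), but was lower by library size (-0.35, adjusted p = 0.015). Dld, the E3 subunit shared with other dehydrogenases, was called narrowly (51.8 ± 1.57 to 58.8 ± 3.51 CPM, 0.18 ± 0.07, adjusted p = 0.0496). That call was lost without any of the libraries except treated clone c (adjusted p = 0.080 to 0.17 for the other 5) and with DESeq2 (0.13), and the value turned to -0.015 by library size.

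The phosphatases that reactivate the complex also split. Pdp1 had 7.52, 9.25 and 10.4 CPM untreated and 11.9, 11.9 and 11.97 CPM after 4OHT (0.40 ± 0.15, edgeR adjusted p = 0.037), a call lost without any of the libraries except untreated clone c (0.065 to 0.14) and by library size (0.20, adjusted p = 0.25). Pdp2 had 18.6, 18.4 and 29.3 CPM untreated and 13.7, 10.1 and 17.95 CPM after 4OHT (-0.67 ± 0.23, adjusted p = 0.028), with clone c highest in both groups. It was not called without untreated clone c (-0.44, adjusted p = 0.075) or the treated library of clone a (0.070) or b (0.12).

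Of the 5 tested pentose phosphate genes 3 were lower and 1 higher (28.6% and 28.5% of all genes), and the median was -0.64. Scaled by library size, 3 were lower and 0 higher (41.0% and 17.4%). The oxidative branch makes NADPH. In it, Pgd (chromosome 4, 149149991 to 149166771), the dehydrogenase of its last step, fell 1.62-fold from 93.6, 89.7 and 90.6 to 55.6, 55.6 and 57.9 CPM (-0.70 ± 0.06, edgeR adjusted p = 9.1e-06). Pgls, the lactonase before it, fell from 14.9, 14.9 and 18.9 to 9.01, 10.6 and 11.7 CPM (-0.64 ± 0.15, adjusted p = 0.0041), and Fam129c covers 38.6% of its span. Rpia (chromosome 6, 70765720 to 70792232), which forms ribose phosphate, belongs to the non-oxidative branch. It fell from 39.7, 40.1 and 43.0 to 26.5, 21.6 and 26.3 CPM (-0.72 ± 0.10, adjusted p = 0.00014). The groups did not overlap for any of the 3 genes.

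Unlike Rpia, the carbon-shuffling enzymes of the non-oxidative branch were not called lower. Tkt, transketolase, had 162, 164 and 175 CPM untreated and 163, 164 and 196 CPM after 4OHT (0.06 ± 0.08, edgeR adjusted p = 0.53, or -0.14 by library size). Taldo1, transaldolase, had 48.4 ± 1.04 and 62.2 ± 6.27 CPM (0.36 ± 0.08, adjusted p = 0.0041), with 0.16 and adjusted p = 0.13 by library size. G6pdx, the first enzyme of the oxidative branch, is listed at 0 in all 6 libraries. Its span (chromosome X, 74409483 to 74429194) lies wholly within that of Ikbkg. Of 870 listed protein-coding genes inside another one, 865 were at 0, against 14.0% of the 17157 that overlap none, so its level cannot be read from this table.

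Ratios of isoform counts within a library do not depend on the scaling, and 13 pairs were compared. In 11 pairs the groups did not overlap, each with p = 0.10 by an exact two-sided permutation test of 3 against 3 libraries, the smallest it can give (0.118 after adjustment over the 13 pairs). Over all single genes, groups did not overlap upwards for 31.4% and downwards for 31.9%, and no share was computed for other gene pairs. Pairs with a gene in common, such as those with Pdk1 or among Pfkl, Pfkp and Pfkm, are not independent. The Pfkp to Pfkm, Hk2 to Hk1 and Ldhb to Ldha ratios moved by similar amounts. Pfkp to Pfkm went from a log2 ratio of 2.04 ± 0.19 to 4.42 ± 0.13 (SD), a difference of 2.39 ± 0.13 (SE). The Hk2 to Hk1 ratio rose by 2.26 ± 0.17, from 3.002 ± 0.291 to 5.26 ± 0.04. The Ldhb to Ldha ratio went from 1.24, 1.20 and 0.02 in clones a, b and c to -0.88, -1.13 and -1.96, a difference of -2.15 ± 0.52. This ratio of counts changed sign in all 3 clones, but with clone c lower in both groups. The counts are not corrected for gene length, so the sign does not tell which of the 2 genes was higher.

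The remaining ratios moved less. The Pfkp to Pfkl ratio rose by 1.49 ± 0.36 and the Pdk1 to Pdk2 ratio by 1.37 ± 0.23, while Pdk4 to Pdk1 (-1.49 ± 0.21), Pdp2 to Pdp1 (-1.07 ± 0.28), Pdk3 to Pdk1 (-0.93 ± 0.09) and Pfkm to Pfkl (-0.90 ± 0.30) went down. Eno2 to Eno1 (0.84 ± 0.14) and Pfkfb3 to Pfkfb4 (-0.62 ± 0.19) completed the 11. Groups overlapped for Aldoc to Aldoa (-0.05 ± 0.17, exact permutation p = 0.80) and Pfkfb2 to Pfkfb3 (0.37 ± 0.17, exact permutation p = 0.20).

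**Figure D4:**
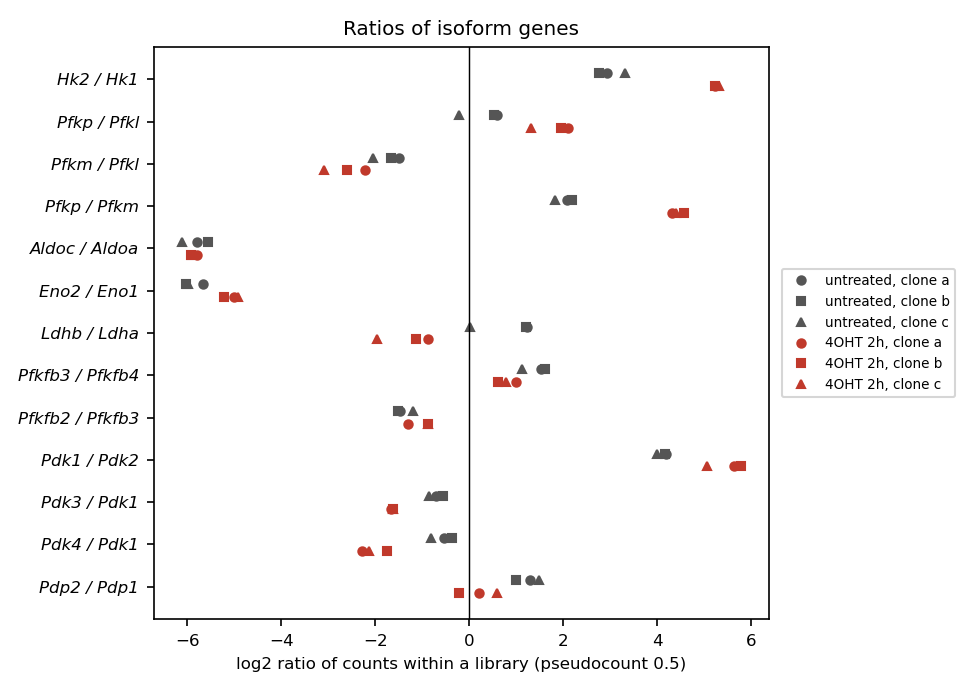
Log2 ratio of the counts of 2 isoform genes within each library (x axis) for 13 pairs (y axis). Grey symbols are untreated and red symbols 4OHT-treated libraries, with the shape giving the clone. Red and grey separate in 11 pairs and overlap for Aldoc / Aldoa and Pfkfb2 / Pfkfb3.

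The clones themselves differed in these genes. With treatment in the model, 14 of the 35 genes differed between clones (edgeR joint test of the clone terms, adjusted p below 0.05), against 12.6% of all genes, and 7 against 16.3% when scaled to the 13 highest-count genes. Ldhb was 0.91 lower on the log2 scale in clone c than in clone a (joint adjusted p = 7.7e-08), Pfkp 0.63 lower (2.2e-06), Pfkm 0.53 lower (0.0031) and Hk1 0.39 lower (0.026). In clone c Pdp2 was higher than in clone a by 0.56 (joint adjusted p = 0.0017), Pgam1 by 0.27, Ldha by 0.26, and Eno1 and Gapdh by 0.23 each. A different response of the clones could not be tested, since each clone and treatment has 1 library.

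**Figure D5:**
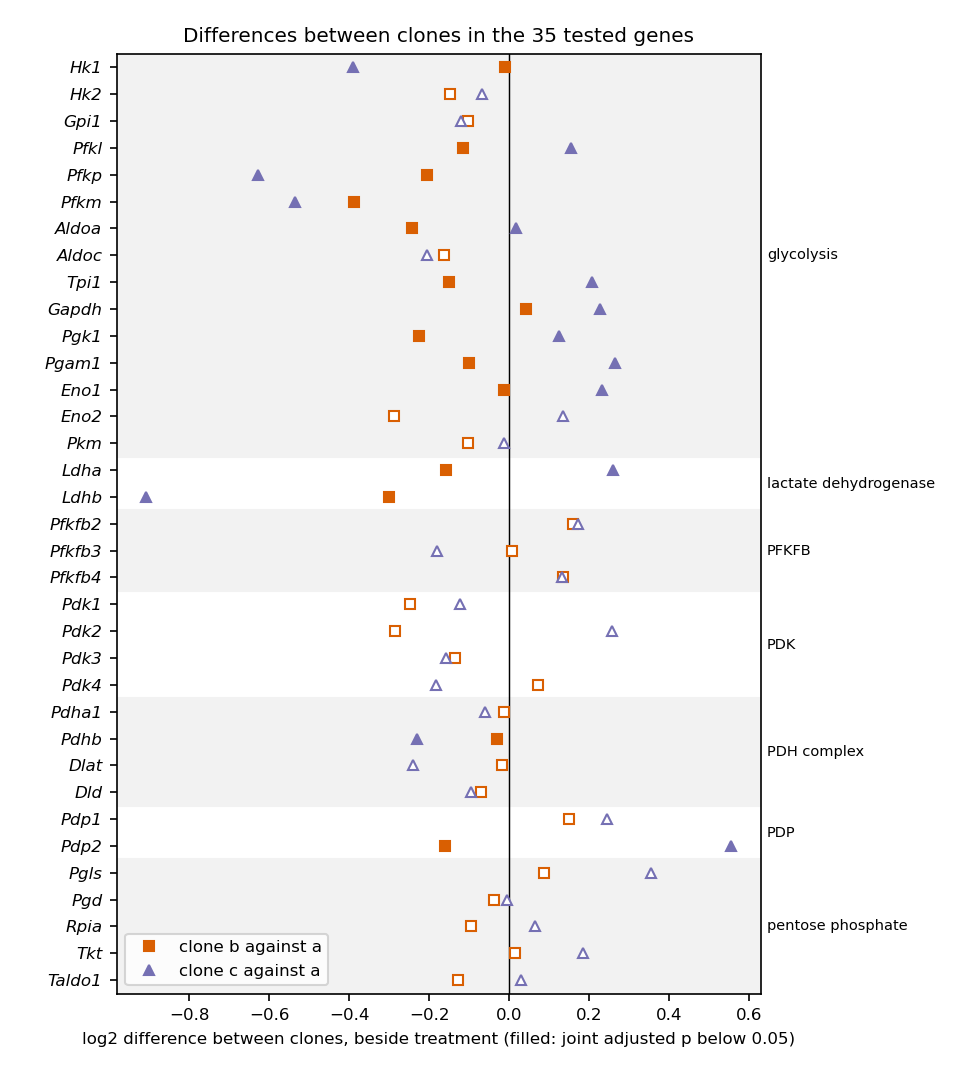
Log2 difference of clones b and c from clone a (x axis), fitted beside treatment, for the 35 tested genes (y axis). Filled symbols mark the 14 genes whose joint test passed an adjusted p of 0.05. Clone c lies farthest from clone a for Ldhb, at -0.91, and for Pfkp, at -0.63.

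Of 53 further genes of glucose transport, rare isoforms, gluconeogenesis and side branches, 41 were tested, of which 15 were higher and 10 lower, where 28.5% and 28.6% of all genes were. By library size 10 were higher and 15 lower (17.4% and 41.0% of all genes), and with clone as a replicate block 16 and 13 (34.1% and 33.3%). Me1, the cytosolic malic enzyme, another source of NADPH, rose from 59.9 ± 6.1997 to 339.6 ± 4.96 CPM (2.51 ± 0.08). Slc2a1, the glucose transporter GLUT1, rose from 299 ± 14.6 to 463 ± 30.8 CPM (0.63 ± 0.07, or 0.32 with an edgeR adjusted p of 0.11 when scaled to the 13 highest-count genes). Also higher were Pgm2l1 by 0.82 ± 0.09 and the phosphatase G6pc3 by 1.29 ± 0.16. Among those lower were Prps2, which passes ribose phosphate on to nucleotide synthesis (-1.26 ± 0.16), Tigar (-0.55 ± 0.08), Ldhd (-0.99 ± 0.19) and Gpd1l (-0.65 ± 0.12).

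HIF transcription factors are textbook activators of glycolytic genes. A list of 29 HIF pathway and target genes shares Pdk1, Pfkfb3 and Pfkfb4 with the genes above. It also shares Slc2a1 and Slc2a3 with the further genes, so these are counted in both lists. Of 28 tested, 14 were higher and 2 lower (median 0.25), against 28.5% and 28.6% of all genes. Scaled by library size these were 10 and 3 (17.4% and 41.0% of all genes), and the median was 0.05. Scaled to the 13 highest-count genes they were 6 and 3 (9.94% and 40.0%), with a median of -0.06. With clone as a replicate block they were 16 and 3 (34.1% and 33.3%). Ero1l (1.48 ± 0.08), Bhlhe40 (2.64 ± 0.14), P4ha1 (0.83 ± 0.07) and Epas1, which encodes HIF2 alpha (1.48 ± 0.14), rose, while Hif3a (-0.75 ± 0.11) and Mxi1 (-0.42 ± 0.10) fell. Also among the 14 higher genes were Vhl (0.58), Egln2 (0.27), Egln3 (0.63) and Hif1an (0.35) of the HIF pathway. So were the target genes Vegfa (1.28), Bnip3l (0.59) and Kdm3a (0.41). The 12 not called included Car9 (-0.17), Bnip3 (-0.007), Ndrg1 (-0.25), Ankrd37 (0.19), Ddit4 (0.23) and P4ha2 (-0.0009). Hif1a did not pass (0.18 ± 0.07, edgeR adjusted p = 0.052), although it did with clone as a replicate block (adjusted p = 0.0035) and was -0.02 by library size. Of 17 other regulators tested 5 were higher and 9 lower (28.5% and 28.6% of all genes), or 5 and 10 with clone as a replicate block (34.1% and 33.3%), among them Myc (1.70 ± 0.15) and Mycn (-1.20 ± 0.06), which were picked for naming after their values were seen.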

How the data were processed

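Nascent RNA labelled with ethynyl uridine was isolated with a Click-iT capture kit and made into libraries with the NEB Next Ultra 2 kit, per the labels' protocols. STAR, featureCounts and mm10 are named in the submitters' processing notes. Nothing in the sources used here gives versions, the counted feature or the strand setting. Raw counts per gene symbol are what the authors deposited, without normalization. Genes inside another listed gene were at 0 on the same strand (348 of 349) as on the opposite strand (517 of 521).

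Counts were tested with edgeR 4.0.16 (R 4.3.3) on 3 against 3 libraries with no clone term: filterByExpr (minimum count 10, minimum total 15) left 13869 genes, libraries were scaled by TMM, and p-values were adjusted by Benjamini-Hochberg over all of them and called below 0.05. The SE is the log2 fold change divided by the square root of F. Clones are the replicates, and whether they were cultured independently is not stated, so p-values reflect only how these libraries vary and part of that may be technical. Intervals set by a count of 0 cover counting error only. Libraries of a clone form pairs by their titles, and their departures from the group mean correlated across genes (r = 0.28, 0.16 and 0.36 for a, b and c, and at most 0.068 between different clones). Blocked values stand beside named genes whose call they change and beside the lists they add to. On simulated counts for this comparison (13803 genes), 98 of 100 genes changed by 0.75 on the log2 scale and 12 of 13603 unchanged genes were called. The simulation had the same dispersion for all genes, no clone differences and few changed genes, equally up and down. Its rates may therefore not hold for the real libraries. Isoform ratios used log2 counts plus 0.5. Positions and overlaps come from GENCODE M21 (GRCm38, the assembly of mm10), in which Aldoa has 2 entries, the first of which was used. Promoter windows come from RefSeq (GRCm38.p6). Members, lists and tests were chosen with earlier results of these data known. Values in every library are given for called genes with a log2 change of at least 0.5, for Gapdh and for other isoforms of the same steps. In the further pathway and HIF lists up to 4 genes per direction with the smallest adjusted p are named. Some further genes of the HIF list, picked after their values were seen, are named too. Alternatives were other scalings, filters, DESeq2 1.42.0, limma-voom (limma 3.58.1), the clone block, stricter thresholds, and each library and each clone left out.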

Additional observations from a re-analysis of the deposited data

How the results depend on the processing

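Of the 35 tested genes, 15 kept direction and side of the threshold under every alternative, 7 of the 18 higher, 6 of the 8 lower and 2 of the 9 others. Counts of genes higher and lower were 20 and 9 with clone as a replicate block, 15 and 9 with that block in DESeq2, 16 and 8 with DESeq2 and 18 and 8 with limma-voom. The replicate block in edgeR changed the calls of Pfkm, Tpi1 and Gapdh and of no other of the 35 genes. Leaving out single libraries or clones gave 13 to 17 higher and 6 to 8 lower. Scaled to the 13 highest-count genes, 7 genes were higher, 6 further pathway genes were higher and 18 lower, 9 HIF genes were called and 7 genes differed between clones. With a log2 fold change of at least 1, 4 genes were higher and 2 lower, 3 and 2 of the further pathway genes, and 5 HIF genes.

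Changes of sign were found in 6 genes near 0 and in 1 ratio. By library size, Tpi1 was -0.06, Gapdh -0.069, Pfkfb3 -0.15, Pdk3 -0.12, Dld -0.015 and Tkt -0.14. Scaled to the 13 highest-count genes they were -0.16, -0.18, -0.27, -0.23, -0.12 and -0.25 in that order. With the upper quartile Pfkfb3 was -0.051, Pdk3 -0.023 and Tkt -0.036. Without single libraries or clones, Pfkfb3 ranged from -0.053 to 0.18, Pdk3 from -0.002 to 0.12, Tkt from -0.024 to 0.11 and the Aldoc to Aldoa ratio from -0.20 to 0.11. Each scaling shifts all genes nearly alike by construction, and the cause of the other changes was not tested.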
